A study of Mus musculus with 6 samples.

Results

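De novo lipogenesis is the route by which the liver builds fatty acids from acetyl-CoA. Its 10 genes Acly, Acaca, Acacb, Fasn, Me1, Scd1, Scd2, Elovl5, Elovl6 and Mlxipl were taken by symbol from the 52459 genes counted in whole livers, and all 10 passed the filter on low counts that left 17032 genes to test. The 6 livers came from male C57BL6J mice of the Alb-Cre/Cas9 F1 generation, 8 months old, in which Cas9 is expressed under Alb-Cre and therefore in hepatocytes. At 4 to 5 weeks of age, 3 mice received AAV8-U6-sgCtrl intravenously (sgCtrl livers 5.1, 7.1 and 7.2) and 3 received AAV8-U6-sgPrdx2 (sgPrdx2 livers 1.1, 1.3 and 3.2), which carries the guide RNA against Prdx2, a peroxiredoxin that removes hydrogen peroxide. Both groups were given 100 mg/kg of diethylnitrosamine (DEN), a liver carcinogen, by intraperitoneal injection 3 weeks later and, after 1 more week, the CDA-HFD, a high-fat diet without choline and with defined amino acids, for 6 months. No liver was left without DEN and CDA-HFD, so the comparison is between 2 groups of diseased livers. The design aims the edit at hepatocytes and not at other liver cells, and hepatocytes that the vector did not reach would keep PRDX2. Editing itself was not measured in these data.

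In the pathway, citrate from mitochondria is split to acetyl-CoA by ATP citrate lyase (Acly), carboxylated to malonyl-CoA by the acetyl-CoA carboxylases (Acaca and Acacb) and joined to palmitate by fatty acid synthase (Fasn), which spends NADPH that malic enzyme (Me1) and the pentose phosphate pathway supply. Elongases (Elovl6 and Elovl5) lengthen the chain, and stearoyl-CoA desaturases (Scd1 and Scd2) place a double bond in it. In the liver the genes are switched on after feeding by the insulin-driven factor SREBP-1c (Srebf1) and by the glucose-sensing factor ChREBP (Mlxipl), and the pathway is a known source of fat in fatty liver disease.

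Me1 was the member that differed between the groups. Its level in sgPrdx2 livers was 0.478 times that in sgCtrl livers, and it was called lower at an adjusted p of 0.0373 (edgeR's quasi-likelihood test, Benjamini-Hochberg adjustment over the 17032 genes). The other 9 genes, Fasn and both carboxylases among them, did not pass the test. Calls lower in sgPrdx2 livers were thus 1 of 10 members against 1.54% of all genes, and calls higher were 0 of 10 against 1.79% of all genes (3.33% in either direction). At an unadjusted p under 0.05 there were 2 members, Me1 and Scd2, against 24.9% of all genes. The median log2 fold change of the 10 genes was -0.14, with 3 above 0 and 7 below. That of all genes was -0.02, with 48.3% of them above 0. With each liver left out the median of the 10 ran from -0.31 (without sgPrdx2 3.2) to -0.03 (without sgPrdx2 1.3).

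**Figure D1:**
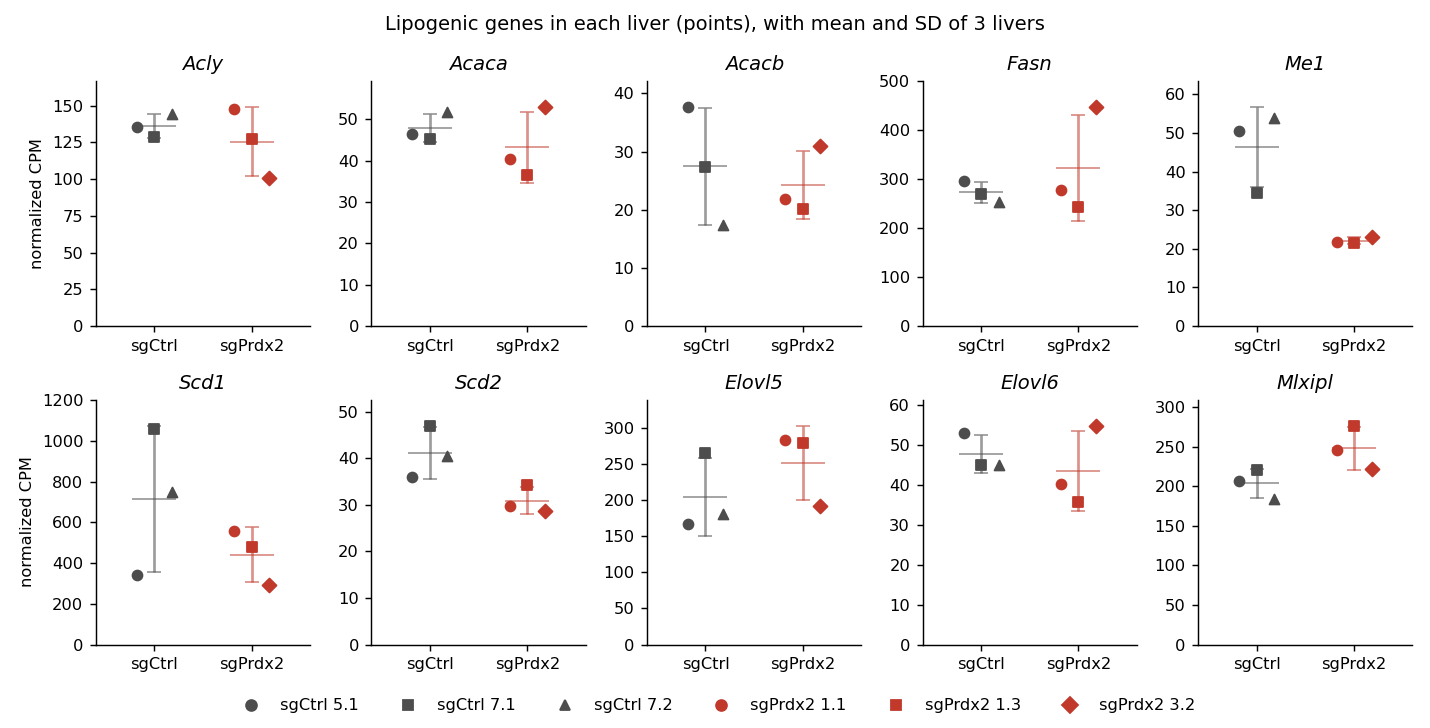
Normalized counts scaled to library size (CPM, vertical axes from 0) of the 10 lipogenic genes in each of 3 sgCtrl (grey) and 3 sgPrdx2 (red) livers, 1 symbol per mouse, with the mean and SD of each group. Me1 lies between 21.6 and 23.1 CPM in sgPrdx2 and between 34.4 and 53.7 CPM in sgCtrl livers, and liver 3.2 (diamonds) stands apart from the other sgPrdx2 livers for Fasn.

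Total counts ranged from 37462102 to 46753629 for sgCtrl and from 40454021 to 56865293 for sgPrdx2, and no pair of livers agreed within sampling noise (over 15 pairs, chi-square divided by degrees of freedom was 31.9 or more). At these depths the member with the fewest counts, Acacb, still had 916 to 1646 counts per liver. No difference in Prdx2 RNA was detected (log2 fold change 0.01 with a standard error, SE, of 0.18 and a 95% interval from -0.41 to 0.42, adjusted p = 0.983), so the labels could not be checked from it. The liver label held: the sum of 10 hepatocyte markers was 83196 to 91587 CPM in sgCtrl and 140290 to 193960 CPM in sgPrdx2 livers. Alb alone averaged 60214 CPM in sgCtrl and 117780 CPM in sgPrdx2 livers. For all 10 markers, every sgPrdx2 liver exceeded every sgCtrl liver, against 16.7% of all genes. Of them, 6 were called higher, against 1.79% of all genes. In whole tissue, fewer cells of a type and less RNA per cell cannot be told apart. Of markers of fat cells, a cell type that also runs this pathway, Lep had no count in any liver and Adipoq, Plin1 and Retn were at 0 to 0.0307 CPM. Cfd, another marker of the 6, was at 0, 0.578 and 0.0190 CPM in sgCtrl and 1.46, 0.666 and 0.706 CPM in sgPrdx2 livers, without overlap and not called (log2 fold change 2.26, SE 1.01, adjusted p 0.215). Plin4, the last of them, was at 13.7 to 53.1 CPM and overlapped between the groups.

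Set against exon length, the members spanned a wide range of levels. In sgCtrl livers, Scd1 was highest at 146.5 ± 73.3 CPM per kilobase (SD, n = 3), followed by Elovl5 at 57.9 ± 15.3 and Mlxipl at 36.8 ± 3.37 CPM per kilobase. Acly at 25.8 ± 1.49 and Fasn at 24.97 ± 1.96 CPM per kilobase came next and overlapped each other. Me1 stood at 12.02 ± 2.70 CPM per kilobase, above Scd2 at 7.53 ± 1.01 and Elovl6 at 7.42 ± 0.725. The carboxylases were lowest, with 2.85 ± 1.05 for Acacb and 2.80 ± 0.203 CPM per kilobase for Acaca. Neighbours whose sgCtrl livers overlapped were Scd1 and Elovl5, Acly and Fasn, Scd2 and Elovl6, and Acacb and Acaca, and the other neighbours were separate in all 3 livers. In sgPrdx2 livers, Me1 at 5.75 ± 0.217 CPM per kilobase (SD, n = 3) was lower than Elovl6 (6.77 ± 1.55) and close to Scd2 (5.66 ± 0.542), and the livers of these 3 genes overlapped. The highest and lowest genes were the same in both groups, with Scd1 at 90.4 ± 28.0 and the carboxylases at 2.52 ± 0.606 (Acacb) and 2.53 ± 0.505 CPM per kilobase (Acaca).

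**Figure D2:**
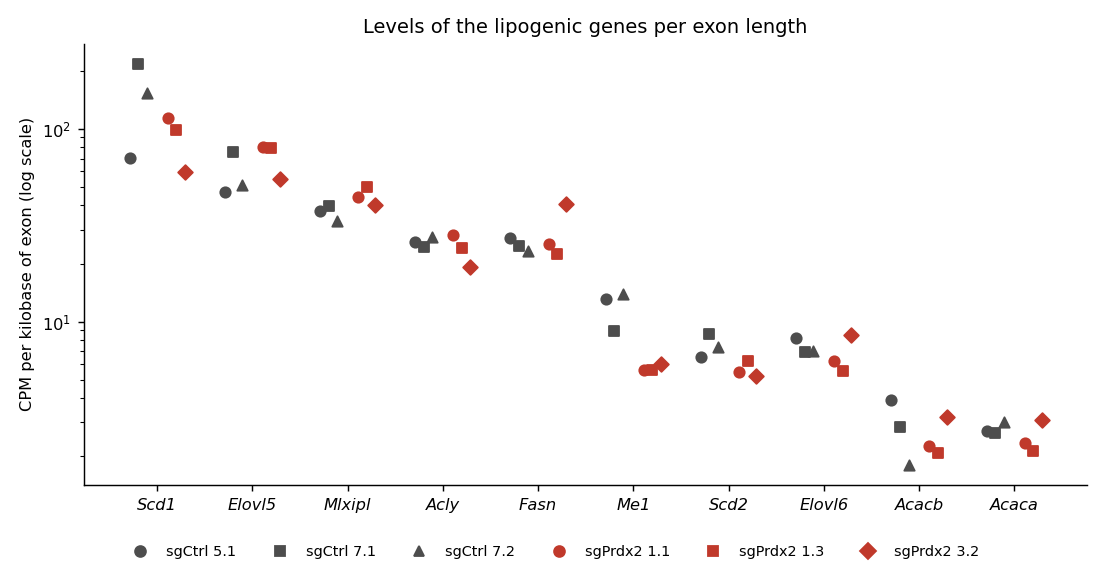
CPM per kilobase of exon (log scale) of the 10 genes, ordered by their mean in sgCtrl livers, with 1 point for each sgCtrl (grey) and sgPrdx2 (red) liver. Levels run from about 146.5 for Scd1 down to 2.80 for Acaca in sgCtrl livers, and the red points of Me1 lie beside those of Scd2 and Elovl6.

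Me1 encodes the cytosolic malic enzyme, which turns malate into pyruvate and yields NADPH for fatty acid synthesis. It was given 2215, 1547 and 2825 reads in sgCtrl 5.1, 7.1 and 7.2 against 953, 1168 and 752 reads in sgPrdx2 1.1, 1.3 and 3.2. After normalization these were 50.6, 34.4 and 53.7 CPM in sgCtrl and 21.7, 21.6 and 23.1 CPM in sgPrdx2 livers. Every sgPrdx2 liver lay below every sgCtrl liver, and the sgPrdx2 livers were within 1.07-fold of each other while the sgCtrl livers spread over 1.56-fold. The log2 fold change was -1.06 with an SE of 0.18 and a 95% interval from -1.47 to -0.66, at rank 146 of all genes by p. The direction held with any liver left out, with log2 fold changes from -1.24 to -0.94, but the call was lost without sgCtrl 5.1, without sgCtrl 7.2, without sgPrdx2 1.1 and without sgPrdx2 1.3 (adjusted p from 0.083 to 0.144), fits in which no gene at all was called and 3068 to 3961 genes had an unadjusted p under 0.05. Of the 3814 stretches of 50 bases in Me1 transcripts, 28.3% also lie in another gene, mainly Gm7049 (21.1%) and Gm48795 (17.3%). Neither of these symbols is among the genes counted. How reads shared with these were counted is not given in the sources used here.

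Me1 lies on chromosome 9 (GRCm38, 86581371 to 86695953, minus strand) with 17 merged exons and 3848 exonic bases. The start of the gene overlaps A330041J22Rik on the other strand, which had 1 to 7 counts per liver. RefSeq lists 2 starts for Me1, 8637 bases apart, and counts per gene do not separate them. The 250 bases before the outer start (chr9:86695915-86696164, minus strand, GRCm38.p6) are shown because Me1 was the member called, with matches to GGGCGG, the GC box bound by SP1, in capitals on either strand.
Me1: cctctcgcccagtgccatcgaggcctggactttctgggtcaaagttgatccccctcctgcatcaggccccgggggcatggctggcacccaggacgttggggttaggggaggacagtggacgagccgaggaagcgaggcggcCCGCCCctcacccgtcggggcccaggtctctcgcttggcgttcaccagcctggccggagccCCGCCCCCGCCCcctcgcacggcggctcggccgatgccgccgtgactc
The window held 3 GC boxes, of which those 48 and 42 bases before the start adjoin each other, and 72.0% of its bases were G or C. It had no match to TGACNNNGC, the core of the antioxidant response element that NRF2 binds, to CACGTG, the E-box shared by USF and ChREBP sites, to TCACNCCAC, an element of the kind bound by SREBPs, or to CCAAT, the box bound by NF-Y. Over all 32851 windows of the same length in the RefSeq table, 32.7% held a GC box, 33.8% a CCAAT box, 10.2% the antioxidant core, 6.02% the E-box and 1.05% the SREBP element.

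Me1 shares its product with genes on the list of enzymes that supply citrate, acetyl-CoA and NADPH to the pathway. Of 11 genes of that list tested, 0 were called higher and 1 lower, against 1.79% and 1.54% of all genes. The median log2 fold change of the list was 0.29, with 7 values above 0 and 4 below. With hepatocyte markers as the scale it was -0.63, where that of all genes was -0.93. Relative to all genes it was 0.30 under both scalings. Pgd, 6-phosphogluconate dehydrogenase of the pentose phosphate pathway and a source of NADPH, was the gene called. It measured 192, 172 and 202 CPM in sgCtrl and 112, 109 and 131 CPM in sgPrdx2 livers, without overlap. The difference was -0.69 on the log2 scale with an SE of 0.14 (adjusted p = 0.0466). The call was lost in 5 of 6 fits that left out a liver, all but that without sgPrdx2 3.2, at adjusted p from 0.0648 to 0.168 and log2 fold changes from -0.75 to -0.62. G6pdx, glucose-6-phosphate dehydrogenase, which makes NADPH at the entry of that pathway, had 52.6, 39.3 and 49.8 CPM in sgCtrl and 25.3, 29.0 and 36.2 CPM in sgPrdx2 livers. The groups did not overlap, but the log2 fold change of -0.65 (SE 0.17) did not pass the test (adjusted p = 0.0788). It was called lower in 6 of 14 alternatives, among them DESeq2 (adjusted p = 0.0175), no filter on low counts (adjusted p = 0.0451) and the fit without sgPrdx2 3.2 (adjusted p = 0.0464). Idh1, another enzyme of the list that makes cytosolic NADPH, was looked up after these values were seen and differed by 0.27 on the log2 scale (SE 0.15, adjusted p 0.302). Its livers overlapped, at 203, 240 and 207 CPM in sgCtrl and 298, 250 and 236 CPM in sgPrdx2. Mdh1, the cytosolic malate dehydrogenase that makes the malate used by malic enzyme, measured 319, 394 and 393 CPM in sgCtrl and 592, 561 and 633 CPM in sgPrdx2 livers. Its difference in log2 CPM of 0.69 (SE 0.15) just missed the threshold (adjusted p = 0.0509), with no overlap of the groups. It was called higher in 4 of 14 alternatives, with RLE factors (adjusted p = 0.0498), no filter (adjusted p = 0.0388), the filter of 10 counts per liver (adjusted p = 0.0495) and DESeq2 (adjusted p = 0.000327). Scaling the counts to 10 hepatocyte markers brought it to -0.22, or 0.71 relative to the median of all genes, as under TMM.

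**Figure D3:**
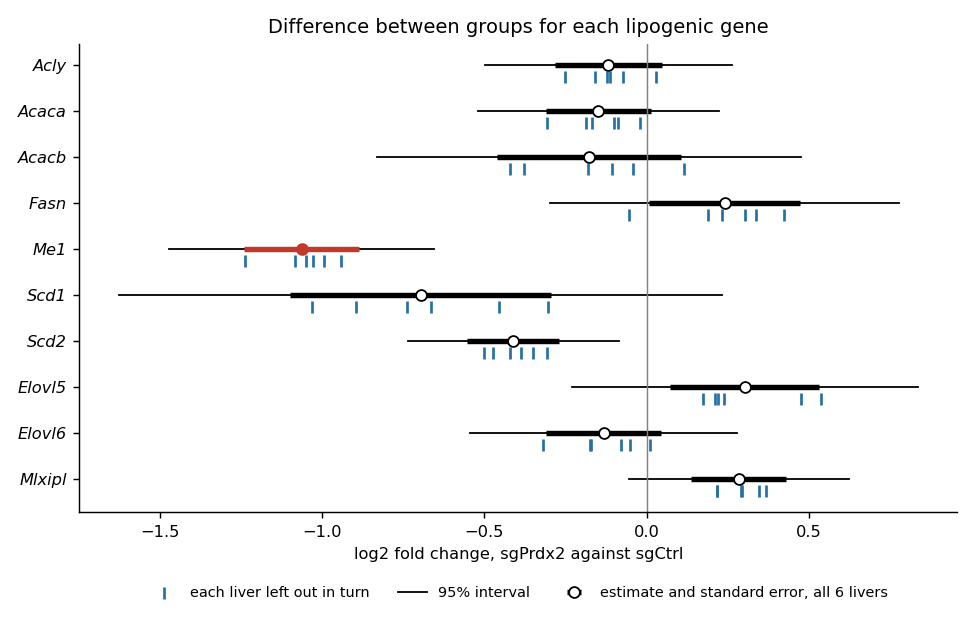
Log2 fold change of sgPrdx2 against sgCtrl livers (horizontal axis) for the 10 genes, with the estimate (circle), its standard error (thick line), the 95% interval (thin line) and the estimates with each liver left out in turn (blue ticks). Me1 at -1.06 is the filled circle and the gene with an adjusted p under 0.05, and the blue ticks of Acly, Acacb, Fasn and Elovl6 fall on both sides of 0.

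Acly, which cleaves citrate to acetyl-CoA, had 136, 129 and 144 CPM in sgCtrl and 148, 127 and 101 CPM in sgPrdx2 livers. The highest and the lowest liver were both in the sgPrdx2 group. The groups differed by -0.12 on the log2 scale with an SE of 0.16 (adjusted p = 0.683), with a 95% interval from -0.50 to 0.26. Acaca, the cytosolic acetyl-CoA carboxylase that makes malonyl-CoA for synthesis, measured 46.5, 45.2 and 51.8 CPM in sgCtrl and 40.3, 36.4 and 52.9 CPM in sgPrdx2 livers. Here sgPrdx2 3.2 was the highest of the 6 livers and sgPrdx2 1.3 the lowest. The difference of -0.15 on the log2 scale had an SE of 0.16 (adjusted p = 0.594, interval -0.52 to 0.22). Of the 50-base stretches of Acaca, 29.2% also lie in Gm5182, a symbol that is not among the genes counted. Gm11437 on the other strand, which had 43 to 137 counts per liver, overlaps Acaca.

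Acacb encodes the carboxylase at the mitochondrial outer membrane, whose malonyl-CoA restrains fatty acid oxidation. It measured 37.6, 27.4 and 17.4 CPM in sgCtrl and 21.8, 20.1 and 31.0 CPM in sgPrdx2 livers. The sgCtrl livers alone spread over 2.16-fold and enclosed the whole sgPrdx2 group. Its log2 fold change of -0.18 had an SE of 0.28 (adjusted p = 0.721, interval -0.83 to 0.47). Acss2, which makes cytosolic acetyl-CoA from acetate and was chosen after its values were seen, had 65.7, 82.3 and 48.3 CPM in sgCtrl and 136, 90.2 and 135 CPM in sgPrdx2 livers. All sgPrdx2 livers were higher, and the log2 fold change of 0.88 (SE 0.24) did not pass the test (adjusted p = 0.0797), though it was called with DESeq2 (adjusted p = 0.00642) and with no filter (adjusted p = 0.0325).

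Fasn builds palmitate from malonyl-CoA and is the central enzyme of the pathway. Raw counts were 12965, 12144 and 13328 in sgCtrl against 12187, 13204 and 14562 in sgPrdx2 livers. After normalization these were 296, 270 and 254 CPM in sgCtrl and 278, 244 and 447 CPM in sgPrdx2 livers. The sgPrdx2 livers 1.1 and 1.3 lay within or below the sgCtrl range, and sgPrdx2 3.2 was far above it. The log2 fold change was 0.24 with an SE of 0.23 (adjusted p = 0.547, interval -0.30 to 0.78), and without sgPrdx2 3.2 it was -0.05, so the sign rested on that liver. Relative to the median of all genes it was 0.26, and 0.19 to 0.26 over the other scalings of the libraries, although the value itself was -0.16 with total counts, -0.18 with housekeeping genes and -0.74 with hepatocyte markers as the scale. The 3 genes with the most similar profile over the 6 livers among 14122 genes of at least 1 CPM were H2-K2, Otud3 and Unc119, with root mean square differences of 0.053, 0.059 and 0.065 in centred log2 CPM. Each had its highest value in sgPrdx2 3.2, at 22.4 CPM for H2-K2 against 11.7 to 14.3 CPM in the other livers.

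AMP-activated kinase (AMPK) switches the carboxylases off by phosphorylation, which RNA does not measure. Of 10 genes of AMPK subunits and carboxylase control tested, 0 were called in either direction, against 3.33% of all genes. The median log2 fold change was 0.09. Mlycd, malonyl-CoA decarboxylase, which removes the product of the carboxylases, had 77.3, 61.2 and 71.1 CPM in sgCtrl and 99.2, 97.1 and 141 CPM in sgPrdx2 livers. The groups did not overlap, and the log2 fold change of 0.68 (SE 0.18) had an adjusted p of 0.0777. Prkaa1, a catalytic subunit of AMPK, differed by -0.39 on the log2 scale (SE 0.14, adjusted p 0.147). Stk11, the kinase LKB1 upstream of AMPK, differed by 0.36 on the log2 scale (SE 0.15, adjusted p 0.194).

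Scd1, the main desaturase of the liver, makes oleate from stearate and was the most abundant member per exon length and the most variable. It measured 343, 1058 and 748 CPM in sgCtrl and 557, 479 and 291 CPM in sgPrdx2 livers. The sgCtrl livers spread over 3.08-fold, and sgCtrl 5.1 lay below sgPrdx2 1.1 and 1.3. Its variation between livers of a group was at the 93.5 percentile of all genes (biological coefficient of variation 0.349). The log2 fold change of -0.70 had an SE of 0.40 (adjusted p = 0.319), and its interval from -1.63 to 0.23 included 0. Without sgCtrl 5.1 the log2 fold change was -1.03, and without sgCtrl 7.1 it was -0.30. The genes nearest to it in profile over the 6 livers were Mest, Hells and Loxl4, with root mean square differences of 0.163, 0.172 and 0.189 in centred log2 CPM, farther than those of Fasn.

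Scd2, the paralog with the same reaction that is typical of brain and of the developing liver, had 35.9, 47.0 and 40.5 CPM in sgCtrl and 29.8, 34.3 and 28.7 CPM in sgPrdx2 livers. Every sgPrdx2 liver was lower, which was true of 17.5% of all genes. It had a log2 fold change of -0.41 with an SE of 0.14 (unadjusted p = 0.0193, adjusted p = 0.13), and its interval from -0.74 to -0.09 did not include 0. Among members, Me1 and Scd2 were the genes without overlap in this direction. Scd1 and Scd2 share 145 stretches of 50 bases, which are 2.97% of those of Scd1 and 2.66% of those of Scd2. Counting any other gene, the shared parts were 4.56% for Scd1 and 3.97% for Scd2. The desaturase genes Scd3 and Scd4 were too low to test, at 0.037 to 0.154 CPM for Scd3 and 0.0381 to 0.297 CPM for Scd4.

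Elovl6 lengthens palmitate to stearate, and Elovl5 lengthens polyunsaturated chains. Elovl6 measured 53.1, 45.0 and 45.1 CPM in sgCtrl and 40.1, 35.7 and 54.8 CPM in sgPrdx2 livers. As with Acaca and Fasn, sgPrdx2 3.2 was the highest and sgPrdx2 1.3 the lowest of the 6. The groups differed by -0.13 on the log2 scale (SE 0.18, adjusted p = 0.671, interval -0.54 to 0.28). Elovl5 was lowest in that liver among the sgPrdx2 group, with 166, 265 and 180 CPM in sgCtrl and 283, 279 and 192 CPM in sgPrdx2 livers. The sgCtrl 7.1 value lay between sgPrdx2 3.2 and the other sgPrdx2 livers, so the groups overlapped, and the log2 fold change of 0.30 had an SE of 0.23 (adjusted p = 0.445, interval -0.23 to 0.84). It was below 0 with total counts (-0.05) or hepatocyte markers (-0.56) as the scale, while the median of all genes was then -0.39 and -0.93.

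The remaining elongases, desaturases and enzymes of the elongation cycle held 2 of the 5 calls among the pathway genes and members. Of 14 tested, 0 were called higher and 2 lower, against 1.79% and 1.54% of all genes. Their median log2 fold change was 0.24, and Elovl4, Scd3 and Scd4 were too low to test. Hacd4, a member of the family of 3-hydroxyacyl-CoA dehydratases, measured 16.9, 15.1 and 16.6 CPM in sgCtrl and 9.71, 10.9 and 9.43 CPM in sgPrdx2 livers. It was called lower, by -0.69 on the log2 scale (SE 0.13, adjusted p 0.0409). Elovl7, an elongase of saturated long chains, measured 12.7, 8.32 and 10.2 CPM in sgCtrl and 5.35, 5.95 and 4.48 CPM in sgPrdx2 livers. It was also called lower, by -0.98 on the log2 scale (SE 0.20, adjusted p 0.0471). With a liver left out, Hacd4 kept its call only without sgPrdx2 3.2 and Elovl7 only without sgCtrl 7.1, with adjusted p up to 0.158 and 0.159 in the other fits, and both stayed below 0 in all 6. Elovl2, which elongates polyunsaturated chains toward docosahexaenoate, had 157, 178 and 152 CPM in sgCtrl and 254, 289 and 222 CPM in sgPrdx2 livers. Its value of 0.65 on the log2 scale (SE 0.15) did not pass the test (adjusted p = 0.0583), although no livers of the groups overlapped.

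**Figure D4:**
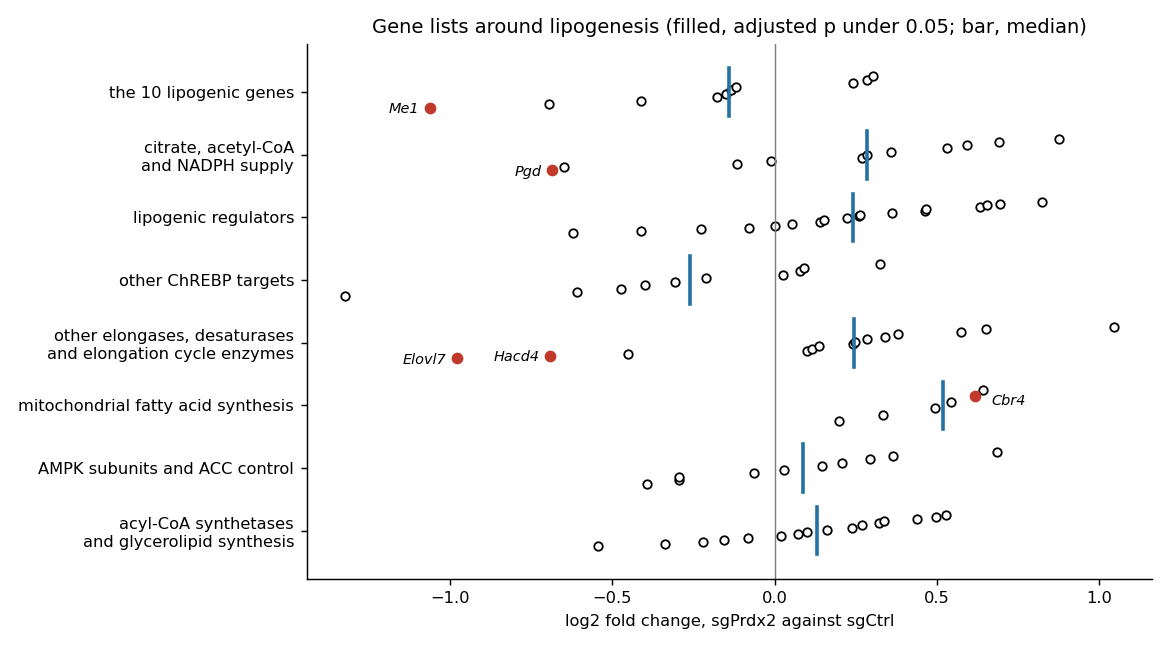
Log2 fold change of sgPrdx2 against sgCtrl livers (horizontal axis) for each tested gene of the 10 members and of 7 lists around the pathway, 1 circle per gene, with genes called at an adjusted p under 0.05 filled and named and the median of each list as a bar. The genes called are Me1, Pgd, Hacd4 and Elovl7 on the left of 0 and Cbr4 on the right, and the medians lie between -0.26 and 0.52.

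Mlxipl encodes ChREBP, which activates Pklr, Fasn, Acaca, Scd1 and other glycolytic and lipogenic genes when glucose is high. It measured 206, 221 and 184 CPM in sgCtrl and 246, 277 and 222 CPM in sgPrdx2 livers. Every sgPrdx2 liver was higher, though sgPrdx2 3.2 exceeded sgCtrl 7.1 by less than 1 CPM, and 16.7% of all genes were without overlap in this direction. Mlxipl differed by 0.28 on the log2 scale (SE 0.15, adjusted p 0.272, interval -0.06 to 0.62) under TMM, and by -0.08 with total counts as the scale and with 6 housekeeping genes as the scale, where the median of all genes was -0.39 and -0.38. Relative to that median it was 0.30 to 0.32 under these scalings and the scaling to hepatocyte markers. The genes nearest to it in profile over the 6 livers were Mknk2, Lrp1 and Gm26660, with root mean square differences of 0.040, 0.047 and 0.050 in centred log2 CPM.

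Mlxipl has alternative first exons, and RefSeq lists starts 17001 bases apart on chromosome 5, plus strand, which correspond to different forms of ChREBP. Counts per gene do not tell them apart, so a shift between them was not measured. The 250 bases before each start are shown for that reason, from chr5:135089640-135089889 (upstream) and chr5:135106641-135106890 (downstream, GRCm38.p6), with matches to the motifs named above in capitals.
Mlxipl, upstream start: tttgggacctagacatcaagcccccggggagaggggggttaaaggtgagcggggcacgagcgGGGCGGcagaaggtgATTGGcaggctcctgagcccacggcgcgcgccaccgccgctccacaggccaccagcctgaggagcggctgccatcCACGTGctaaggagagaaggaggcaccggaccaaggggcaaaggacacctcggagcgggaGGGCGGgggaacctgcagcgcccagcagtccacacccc
Mlxipl, downstream start: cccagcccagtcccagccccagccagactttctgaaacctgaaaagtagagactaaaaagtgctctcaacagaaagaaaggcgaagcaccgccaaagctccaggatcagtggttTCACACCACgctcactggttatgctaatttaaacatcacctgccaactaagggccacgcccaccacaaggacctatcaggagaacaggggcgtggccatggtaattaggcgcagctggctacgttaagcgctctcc
The upstream window held CACGTG 98 bases before its start, a CCAAT box and 2 GC boxes. The downstream window held TCACACCAC, a match to the SREBP element, 136 bases before its start, and none of the other motifs. In all, 8 of the 10 members had 10 windows in the table, and Scd1 and Scd2 had none. The SREBP element was found for 1 of these 8 genes (Mlxipl) and the E-box for 2 (Elovl5 and Mlxipl). A GC box was found for 3 (Acly, Me1 and Mlxipl), a CCAAT box for 5 and the antioxidant core for 0. These counts are per gene, over 2 windows for Me1 and Mlxipl, while the shares given above are per window. The only windows of Acaca and Acacb lie inside these genes, before starts at 84195438 and 114165518. In GENCODE vM21 the genes begin at 84129672 and 114146535, and the sequence before those positions was not searched. Outside the 10 genes, the antioxidant core lay 57 bases before the start of G6pdx and 107 before that of Acss2. No window of Pgd or Srebf1 held it.

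The window of Fasn is shown as that of the central enzyme, from chr11:120824548-120824797 on the minus strand (GRCm38.p6), with its 3 matches to CCAAT in capitals.
Fasn: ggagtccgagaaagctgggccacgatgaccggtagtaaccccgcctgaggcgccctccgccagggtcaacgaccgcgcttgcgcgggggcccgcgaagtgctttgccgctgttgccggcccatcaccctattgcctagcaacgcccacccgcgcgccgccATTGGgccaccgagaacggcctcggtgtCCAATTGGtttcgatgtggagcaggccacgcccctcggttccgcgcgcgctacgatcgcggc
These lie 90, 62 and 59 bases before the start, the last pair overlapping on opposite strands, and the window held no other motif searched.

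Among 18 regulators of lipogenesis, 0 were called in either direction, against 3.33% of all genes. The median log2 fold change was 0.24, with 13 above 0 and 5 below (median -0.69 with hepatocyte markers as the scale, or 0.24 relative to all genes). Srebf1, the gene of SREBP-1, measured 104, 185 and 181 CPM in sgCtrl and 315, 242 and 203 CPM in sgPrdx2 livers. The groups did not overlap, and sgPrdx2 3.2, the liver highest for Fasn, was the lowest of the sgPrdx2 livers. Its difference in log2 CPM of 0.69 (SE 0.26) did not pass the test (adjusted p = 0.154). Mlxip, the ChREBP paralog MondoA, had 26.4, 23.3 and 20.1 CPM in sgCtrl and 15.9, 16.8 and 12.7 CPM in sgPrdx2 livers. The difference of -0.62 on the log2 scale (SE 0.16) had an adjusted p of 0.0709. Rxra, the partner of the liver X receptors, differed by 0.47 on the log2 scale (SE 0.14, adjusted p 0.0983). Nr1h3, the liver X receptor that activates Srebf1, differed by 0.46 on the log2 scale (SE 0.16, adjusted p 0.135).

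Of 10 further ChREBP targets, 0 were called in either direction, against 3.33% of all genes. Their median log2 fold change was -0.26, the lowest of the 7 pathway lists. Txnip, an arrestin-like protein that rises with glucose and binds thioredoxin, measured 326, 220 and 268 CPM in sgCtrl and 169, 207 and 156 CPM in sgPrdx2 livers. The difference was -0.61 on the log2 scale (SE 0.19, adjusted p = 0.106), without overlap. Fgf21, a hormone made by the liver, had 82.0, 44.2 and 98.3 CPM in sgCtrl and 9.98, 38.4 and 41.3 CPM in sgPrdx2 livers. The groups were separate but each was spread widely, and the log2 fold change of -1.32 had an SE of 0.51 (adjusted p = 0.161). Pklr, the liver pyruvate kinase and the classic ChREBP target, overlapped between groups and differed by -0.40 on the log2 scale (SE 0.22, adjusted p 0.302).

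Mitochondria hold a separate fatty acid synthesis route that feeds lipoate and does not make fat for storage. All 6 of its tested genes had log2 fold changes above 0, as did 48.3% of all genes, and 4 of the 6 were higher without overlap (16.7% of all genes). Their median was 0.52 under TMM. With hepatocyte markers as the scale it was -0.42, or 0.52 relative to the median of all genes there. Of the 6, 1 was called higher and 0 lower, against 1.79% and 1.54% of all genes. Cbr4, a subunit of its ketoacyl reductase, measured 26.0, 28.0 and 26.5 CPM in sgCtrl and 43.7, 38.2 and 41.7 CPM in sgPrdx2 livers. It was called higher, by 0.62 on the log2 scale (SE 0.11, adjusted p 0.0409) under TMM, and was at 0.24 with total counts, 0.25 with housekeeping genes and -0.30 with hepatocyte markers as the scale, where it was not called. Relative to the median of all genes it was 0.63 under each of these. With a liver left out, it kept its call only without sgPrdx2 3.2 (adjusted p from 0.065 to 0.162 in the other 5 fits). Mcat, its malonyl transferase, differed by 0.54 on the log2 scale (SE 0.14, adjusted p 0.0761). Mecr, its enoyl reductase, differed by 0.64 on the log2 scale (SE 0.19, adjusted p 0.0978).

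Downstream, of 16 acyl-CoA synthetases and glycerolipid synthesis genes tested, 0 were called in either direction, against 3.33% of all genes. Their median log2 fold change was 0.13. Dgat2, which makes triglyceride from newly built fatty acids, had 366, 335 and 321 CPM in sgCtrl and 493, 413 and 479 CPM in sgPrdx2 livers, without overlap. Its difference in log2 CPM of 0.44 (SE 0.14) had an adjusted p of 0.116. Gpat4, a glycerol phosphate acyltransferase, differed by 0.34 on the log2 scale (SE 0.13, adjusted p 0.162), and Acsl1, the main acyl-CoA synthetase of the liver, by 0.50 (SE 0.19, adjusted p 0.166).

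Ratios of 2 genes within a liver do not depend on how libraries are scaled, and 6 of them were compared. No difference between the groups passed the test (two-sided exact permutation tests of log2 ratios, adjusted p from 0.96 to 1), in a design whose smallest possible p is 0.1. The ratio of Scd1 to Scd2 counts was 9.56, 22.5 and 18.5 in sgCtrl and 18.7, 14.0 and 10.1 in sgPrdx2 livers (exact permutation p = 0.8). Both groups covered nearly the same range. The ratio of Acaca to Acacb was 1.24, 1.65 and 2.97 in sgCtrl and 1.85, 1.81 and 1.71 in sgPrdx2 livers (exact permutation p = 1). It was close to constant in sgPrdx2 and varied in sgCtrl livers.

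The ratio of Fasn to Acly was 2.18, 2.10 and 1.76 in sgCtrl and 1.88, 1.92 and 4.43 in sgPrdx2 livers (exact permutation p = 0.8). The ratio of Fasn to Cpt1a, the gatekeeper of mitochondrial fatty acid oxidation, was 0.600, 0.653 and 0.613 in sgCtrl and 0.627, 0.470 and 1.16 in sgPrdx2 livers (exact permutation p = 0.8). In both ratios sgPrdx2 3.2 stood above all other livers. The ratio of Elovl6 to Elovl5 was 0.319, 0.170 and 0.250 in sgCtrl and 0.142, 0.128 and 0.285 in sgPrdx2 livers (exact permutation p = 0.3). The ratio of Mlxipl to Srebf1 was 1.99, 1.20 and 1.02 in sgCtrl and 0.781, 1.15 and 1.09 in sgPrdx2 livers (exact permutation p = 0.4). The sgCtrl 5.1 liver was the highest for both of these, and the groups overlapped in all 6 ratios.

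**Figure D5:**
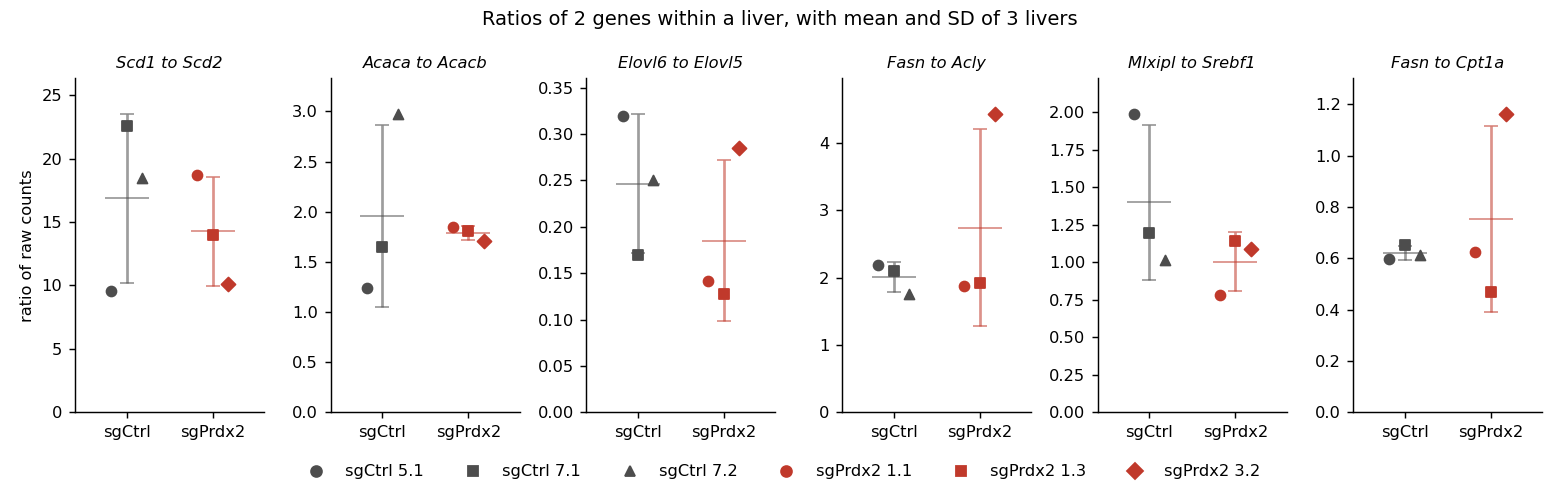
Ratio of the raw counts of 2 genes (vertical axes from 0) in each of 3 sgCtrl (grey) and 3 sgPrdx2 (red) livers for 6 pairs, with the mean and SD of each group. The groups overlap in every panel, and liver sgPrdx2 3.2 (diamond) lies far above the others for Fasn to Acly at 4.43 and for Fasn to Cpt1a at 1.16.

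Summed levels of markers of other liver cells were mostly lower in sgPrdx2 livers. Over all genes, 1.79% were called higher and 1.54% lower. The summed level of 9 macrophage markers was 3737 to 4229 CPM in sgCtrl and 2629 to 3719 CPM in sgPrdx2 livers. Of the 9, 0 were called higher and 1 lower. For 8 stellate cell and fibroblast markers the sum was 1800 to 2055 CPM in sgCtrl and 1321 to 1394 CPM in sgPrdx2 livers, with 0 of 8 called. For 8 lymphocyte markers it was 87.0 to 102 CPM in sgCtrl and 47.9 to 72.2 CPM in sgPrdx2 livers, with 1 of 8 called lower. Sums of 6 endothelial markers (208 to 244 against 148 to 231 CPM, 1 of 6 called lower) and of 5 neutrophil markers (21.8 to 29.3 against 19.4 to 23.4 CPM, 0 of 4 tested called) overlapped between the groups. The sum of 5 cholangiocyte markers was 138 to 221 CPM in sgCtrl and 119 to 138 CPM in sgPrdx2 livers, with 0 of 5 called. The sum of 6 fat cell markers was 13.8 to 45.0 CPM in sgCtrl and 25.6 to 54.5 CPM in sgPrdx2 livers and came almost wholly from Plin4, with 0 of 2 tested called. The part of these levels, and of the hepatocyte marker levels given above, in the results for Me1, Pgd, Hacd4, Elovl7 and Cbr4 was not tested.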

How the data were processed

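RNA-Seq of 6 mouse livers was analysed, 3 sgCtrl and 3 sgPrdx2, grouped by the guide RNA given in the sample labels, with 1 mouse per liver. The authors deposited whole-number counts of reads per gene, without normalization, for 52459 genes. The submitters' processing notes name HISAT2, HTSeq, DESeq2 and the build GRCm38, and the annotation, strandedness and read length are not given in the sources used here. Their table of a DESeq2 comparison (mean normalized count, log2 fold changes with standard errors, Wald statistics, p-values) was not used.

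Counts were analysed with edgeR 4.0.16 in R 4.3.3. Genes were kept by filterByExpr (minimum count 10, 17032 genes), counts were normalized by TMM, and groups were compared by the quasi-likelihood test over all genes, with Benjamini-Hochberg adjusted p under 0.05 as the call. Standard errors were obtained from each log2 fold change and its F statistic (log2 fold change over root F), and 95% intervals use the total degrees of freedom of the test (7.92). The fit was tested on simulated data. Total counts were 37462102 to 56865293 per liver, so that 3 counts stand for 0.0555 to 0.0921 CPM, which covers counting error only. The biological coefficient of variation was 0.213. CPM are normalized by TMM, and CPM per kilobase were divided by merged exon length in GENCODE vM21 (GRCm38), which need not be the annotation counted on. Ratios were compared by exact permutation tests (scipy 1.17.1), adjusted over 6 ratios. Promoter windows are the 250 bases before each start in RefSeq's GRCm38.p6, searched on both strands. In the lists, 2 symbols were matched by synonym.

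Alternatives were RLE or upper-quartile factors, total counts only, scaling to the 6 housekeeping genes of the study's assay or to 10 hepatocyte markers, DESeq2 1.42.0, a filter of 10 counts in every liver, no filter, stricter calls, and each liver left out in turn. The members, the gene lists and the tests were chosen with earlier results of these data known. The rule for named genes gave all 10 members, Prdx2, each called gene and the 3 smallest p of each pathway list, and the 3 nearest profiles to Fasn, Scd1 and Mlxipl. Srebf1 is named as part of a ratio, and Idh1 and Acss2 were chosen after their values were seen.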

Additional observations from a re-analysis of the deposited data

How the results depend on the processing

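The call of Me1 held in 10 of 14 alternatives, and its log2 fold change was below 0 in all of them (-1.999 to -0.94). Member genes called lower numbered 3 with total counts only, 2 with housekeeping genes, 9 with hepatocyte markers and 0 at an adjusted p under 0.01, against 1 in the main analysis, and 0 to 1 when each liver was left out. Of all 17032 genes, 3041 were called lower with total counts only, 919 with housekeeping genes and 12500 with hepatocyte markers, against 262 in the main analysis. These scalings lowered all genes together, to medians of -0.39, -0.38 and -0.93, and relative to that median Me1 was at -1.05, -1.04 and -1.07. Under them Fasn changed sign (-0.16, -0.18 and -0.74), as did Elovl5 (-0.051, -0.046 and -0.56) and Mlxipl (-0.078, -0.077 and -0.61). Under TMM the 6 housekeeping genes themselves had a median log2 fold change of 0.43, with 5 above 0 and 1 below. Of these 6, 0 were called (3.33% of all genes) and 4 were higher without overlap (16.7% of all genes). With each liver left out, log2 fold changes ran from -0.25 to 0.027 for Acly and from -0.055 to 0.42 for Fasn, both changing sign without sgPrdx2 3.2. They ran from -0.42 to 0.12 for Acacb, above 0 without sgCtrl 5.1, and from -0.32 to 0.0094 for Elovl6, above 0 without sgPrdx2 1.3, and none was called.

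Of 85 pathway list genes tested, 1 was called higher and 3 lower, against 1.79% and 1.54% of all genes. Calls higher were 2 with RLE factors, 4 with no filter, 2 with at least 10 counts in every liver, 12 with DESeq2, and 0 with total counts, housekeeping genes, hepatocyte markers, an adjusted p under 0.01 or a log2 fold change of at least 1. Calls lower were 13 with total counts, 5 with housekeeping genes, 61 with hepatocyte markers, 6 with DESeq2 and 0 with either stricter call. With each liver left out they were 0 to 2 higher and 0 to 3 lower, with 0 in both directions without sgCtrl 5.1, sgCtrl 7.2, sgPrdx2 1.1 or sgPrdx2 1.3, and 1 lower without sgCtrl 7.1. Named genes called with DESeq2 and not in the main analysis were Mdh1, Acss2, Elovl2, Mlycd, Mcat, Mecr, Rxra and Dgat2 (higher) and G6pdx, Mlxip and Txnip (lower). Over the 17032 genes tested, 305 were called higher and 262 lower. The other scalings tested the same 17032 genes, no filter 28631 and DESeq2 15329. Calls higher were 70 with housekeeping genes, 41 with hepatocyte markers, 644 with no filter, 1162 with DESeq2, 154 at a log2 fold change of at least 1 and 0 at an adjusted p under 0.01. Calls lower were 3041 with total counts, 919 with housekeeping genes, 12500 with hepatocyte markers, 484 with no filter, 886 with DESeq2, 72 at a log2 fold change of at least 1 and 0 at an adjusted p under 0.01. With each liver left out they were 0 to 324 higher and 0 to 295 lower, 0 in the same 4 fits. The cause of these changes was not tested.

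Log2 differences of ratios, with livers left out, ranged from -0.56 to 0.058 for Scd1 to Scd2 (above 0 without sgCtrl 7.1, and 0.029 without sgPrdx2 3.2), from -0.31 to 0.32 for Acaca to Acacb (above 0 without sgCtrl 7.2, and 0.0029 without sgPrdx2 3.2), from -0.080 to 0.54 for Fasn to Acly and from -0.20 to 0.46 for Fasn to Cpt1a (both below 0 without sgPrdx2 3.2), and stayed below 0 for Elovl6 to Elovl5 (-0.82 to -0.25) and Mlxipl to Srebf1 (-0.64 to -0.15). No paired analysis was possible because the groups share no replicate numbers. With 3 livers per group, members that were not called may still differ by amounts within the intervals given.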
